A study of Sorghum bicolor with 12 samples.

Results

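Genes whose messenger RNA was higher in droughted than in watered roots of both sorghum lines of the series are described. A gene was taken when every droughted library of a line lay above every watered library of that line, in both lines, and when the mean of log2(CPM + 0.5) was at least 0.7 higher in drought in each line. CPM is the read count of a gene divided by the total of its library and scaled to a common total, and the drought response of a gene below means this difference of means. The rule chose 71 of the 20818 genes in the deposited table. The genes were chosen by the drought and water values of both lines, so their responses are given as a description, with no test.

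The material was root tissue of mature Sorghum bicolor plants. NIL-WT-72 and NIL-bri1-72 descend from EMS-mutagenized plants, are BC2F3, and were assumed by the submitters to be near isogenic. NIL-bri1-72 carries a base change in the part of the brassinosteroid receptor SbBRI1 that lies outside the cell, and NIL-WT-72 lacks it. Each line was either watered or held at 30% of field capacity, which gave 4 groups of 3 biological replicates. Each genotype is represented by 1 line, so a difference between the lines cannot be told apart from a difference in other segments of their genomes. Nothing further about the plants behind a replicate is stated, and p-values measure the spread between these libraries.

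Brassinosteroids are plant steroid hormones that are perceived at the cell surface by BRI1, a receptor kinase, and act through transcription factors of the BES1 family to promote growth. Drought raises abscisic acid in plants, which leads to the induction of many genes for osmotic protection, protein stability and hormone feedback. Both pathways meet on shared target genes, and this is the background against which the series compared drought in a line with an altered receptor.

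The deposited identifiers carry no gene names. Of the 71 raised genes 0 matched an entry of the RefSeq gene table of sorghum used here, so no function is given to any of them and no sequence is shown. Root markers were not checked for the same reason. Genes are named by identifier where a result turns on them, with 4 identifiers in all, and otherwise by their rank, which orders the 71 genes by the smaller of their drought responses in the lines. Chromosomes were read from the number in the identifier, following the usual numbering of these gene models, and not from a genome.

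Library totals ranged from 18640601 to 33296273 counts. The smallest count in the table was between 8 and 13 in every library, equal to 0.379 to 0.429 CPM, and no library had a gene at 0. A gene that is silent in watered roots and switched on by drought could therefore not enter the list. The smallest count behind any value of the 71 genes was 10, and 13 of them had at least 1 watered library below 1 CPM. In bulk tissue, a change in the share of a cell type and a change in RNA per cell cannot be told apart.

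The drought responses of the 71 genes were mostly modest, with a few large ones. In NIL-WT-72 they ran from 0.73 to 3.13 with a median of 1.19 on the log2 scale. In NIL-bri1-72 they ran from 0.70 to 4.45 with a median of 0.99. As ratios of mean CPM, the medians were 2.41 for NIL-WT-72 and 2.19 for NIL-bri1-72. The response was 1 or more in both lines for 33 genes and 2 or more in both lines for 5 genes. Reading the conditions of the rule one by one, all droughted libraries lay above all watered ones for 1570 genes in NIL-WT-72 (7.54% of genes) and for 1156 genes in NIL-bri1-72 (5.55%). Both held for 283 genes (1.36%), and the size condition left the 71 (0.341%). These shares describe how the genes were chosen and support nothing further. For drought averaged over both lines, edgeR called 109 of all genes higher (0.524%, adjusted p below 0.05), and 54 of the 71 were among them. Since the rule used this contrast, nothing is read from that count.

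**Figure D1:**
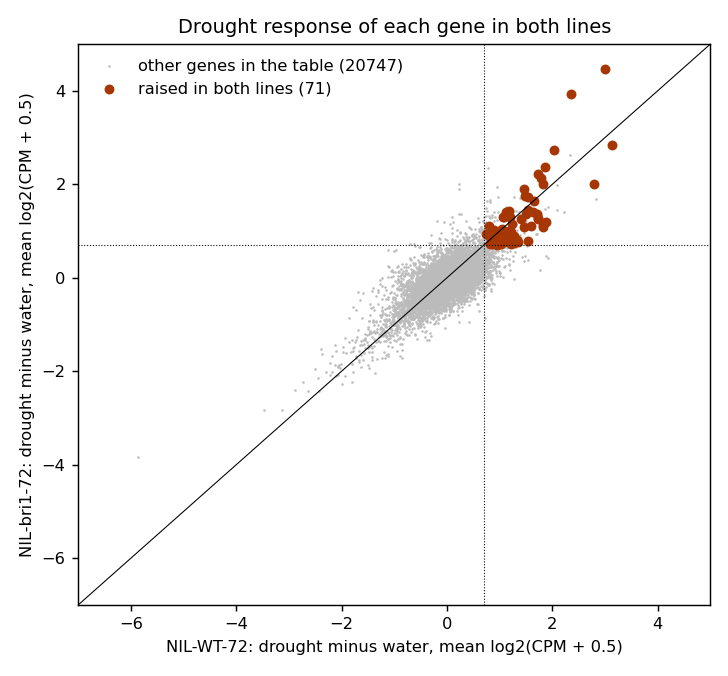
Drought response of each gene in NIL-WT-72 (horizontal axis) and NIL-bri1-72 (vertical axis), as drought minus water in the mean of log2(CPM + 0.5). Coloured points are the 71 genes raised in both lines, grey points all other genes, dotted lines mark 0.7 and the solid line marks equal responses. The genes at ranks 1 and 3 lie farthest above the line of equal responses.

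Genes at the edge of the list had much the same values as those just outside it. The last 3 genes inside had smaller responses of 0.70, 0.71 and 0.71, all in NIL-bri1-72. The nearest 3 genes outside, which met the condition on overlap, had 0.69 and 0.69 in NIL-bri1-72 and 0.68 in NIL-WT-72.

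Sobic.009G215700 on chromosome 9 ranked highest. In NIL-WT-72 it was at 15.3, 10.8 and 1.64 CPM in watered replicates 1, 2 and 3 and at 84.1, 45.4 and 50.8 CPM in the droughted ones. The watered replicates of NIL-bri1-72 were at 3.99, 1.49 and 0.533 CPM and the droughted ones at 99.5, 10.2 and 90.8 CPM. The droughted libraries were far above the watered ones of their line, and NIL-bri1-72 drought replicate 2 was the low one among them. Its level there lay below that of watered NIL-WT-72 replicates 1 and 2. Group means were 9.26 ± 6.97 and 60.1 ± 21.0 CPM for NIL-WT-72, and 2.01 ± 1.79 and 66.8 ± 49.3 CPM for NIL-bri1-72 (water, then drought, SD, n = 3). The log2 fold change of Sobic.009G215700 fitted by edgeR was 2.69 (SE 0.88) in NIL-WT-72 and 4.99 (SE 1.00) in NIL-bri1-72. The droughted means of the lines were close together, and the watered mean was lower in NIL-bri1-72.

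Sobic.003G292400 on chromosome 3, the second in rank, responded to a similar degree in both lines. Its values were 3.64, 3.27 and 1.86 CPM in watered and 39.3, 27.9 and 21.1 CPM in droughted NIL-WT-72. Those of NIL-bri1-72 were 3.42, 1.53 and 1.11 CPM under watering and 28.5, 5.51 and 26.7 CPM under drought. The ratio of mean CPM, drought to water, was 10.1 for NIL-WT-72 and 10.01 for NIL-bri1-72. NIL-bri1-72 drought replicate 2 was again the low library of its group, above the watered libraries of both lines but below all droughted ones, while replicates 1 and 3 lay within the range of droughted NIL-WT-72.

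The gene of rank 3, on chromosome 10, resembled the highest-ranked gene. It was at 8.38, 7.13 and 1.90 CPM in watered and 31.9, 23.1 and 28.1 CPM in droughted NIL-WT-72. For NIL-bri1-72 the values were 1.53, 1.41 and 0.860 CPM with water and 61.0, 6.19 and 45.9 CPM with drought. All 3 watered NIL-bri1-72 libraries lay below all 3 watered NIL-WT-72 libraries. Its response of 3.94 in NIL-bri1-72 against 2.36 in NIL-WT-72 was the widest gap between lines among the 71 genes. In this gene too, replicate 2 was the low droughted library of NIL-bri1-72.

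The gene of rank 4, on chromosome 9, was at 2.77, 4.08 and 2.50 CPM in watered and 17.8, 14.4 and 10.7 CPM in droughted NIL-WT-72. Watered NIL-bri1-72 had 1.86, 0.786 and 0.778 CPM, and droughted NIL-bri1-72 had 14.0, 5.35 and 13.2 CPM. Its watered libraries of NIL-bri1-72 again lay below those of NIL-WT-72, with no overlap. The gene of rank 5, on chromosome 3, went the other way between lines, with a response of 2.00 in NIL-bri1-72 against 2.79 in NIL-WT-72. Its watered means were close, at 1.38 ± 0.684 CPM for NIL-WT-72 and 1.43 ± 0.690 CPM for NIL-bri1-72, and its droughted means were 12.3 ± 4.21 and 7.34 ± 3.12 CPM (SD, n = 3).

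**Figure D2:**
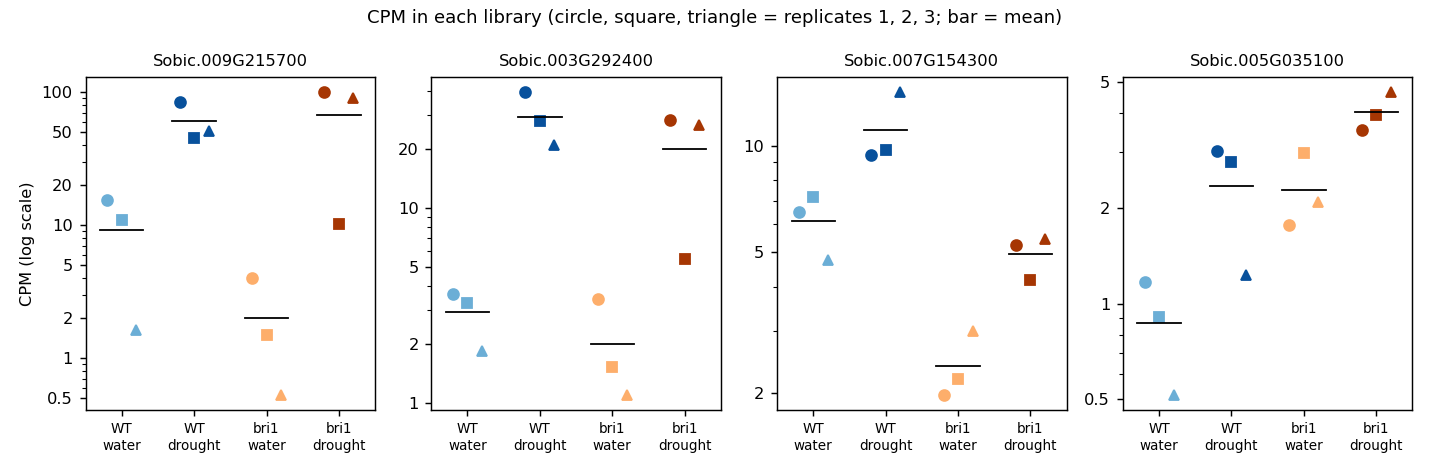
CPM on a log axis in each of the 12 libraries for the 4 genes named by identifier. Circles, squares and triangles are replicates 1, 2 and 3 and bars are group means. In the left panels the square of droughted NIL-bri1-72, at 10.2 and 5.51 CPM, stands below the other droughted libraries, and in the right panels the lines separate in water and in drought.

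Genes with many reads were raised as well as genes with few. CPM is not divided by gene length, so it tells how many reads stand behind a gene and not how its level compares with that of another gene. The mean over the 12 libraries ran from 1.33 to 153.0 CPM with a median of 7.82, where the median of all genes in the table was 18.0 CPM. There were 19 genes below 5 CPM, with a median smaller response of 0.82, 34 genes from 5 to 20 CPM with 0.98, and 18 genes above 20 CPM with 1.07. The gene with the most reads, at rank 70 on chromosome 3, was at 127.9, 95.7 and 87.3 CPM in watered and 276.3, 194.4 and 157.0 CPM in droughted NIL-WT-72. Watered NIL-bri1-72 had 138.6, 89.3 and 112.5 CPM, and droughted NIL-bri1-72 had 156.1, 172.4 and 227.8 CPM. Its ratio of mean CPM was 2.02 for NIL-WT-72 and 1.63 for NIL-bri1-72. Its smallest count was 1783, so this gene stood on many reads and still lay close to the lower bound of the rule. The gene with the next most reads, at rank 27 on chromosome 9, went from a mean of 63.4 ± 13.4 to 193.4 ± 50.8 CPM in NIL-WT-72 and from 73.8 ± 20.4 to 163.1 ± 64.5 CPM in NIL-bri1-72 (SD, n = 3).

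How far a choice made in one line carried over to the other was read from libraries that the choice had not used, since the lines share no library. In NIL-WT-72 alone the rule chose 252 genes (1.21%). Their median response in NIL-bri1-72 was 0.58, against 0.91 in the line that chose them, and 238 of them (94.4%) were higher in drought in NIL-bri1-72. Over all genes the median response in NIL-bri1-72 was -0.02 and 45.4% were higher. In NIL-bri1-72 alone the rule chose 146 genes (0.701%), whose median response was 0.88 in NIL-WT-72 against 0.95 in NIL-bri1-72. Of these, 139 (95.2%) were higher in drought in NIL-WT-72, where 51.6% of all genes were. Because the choice raises the median in the line that made it, the medians of a list do not compare the lines in size of response. The 71 genes are 28.2% of the first list and 48.6% of the second. The same rule turned downward chose 147 genes (0.706% of genes), and a change of 1 or more in both lines was reached by 57.1% of those and by 46.5% of the 71.

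The size of the response was compared between the lines as a description, because both responses chose the genes. It was larger in NIL-WT-72 for 47 genes and larger in NIL-bri1-72 for 24. The difference, NIL-bri1-72 minus NIL-WT-72, had a median of -0.14 and ran from -0.79 to 1.58. It exceeded 0.5 in either direction for 12 genes, and exceeded 1 for the genes of ranks 1 and 3, both larger in NIL-bri1-72. Across the 71 genes the responses of the lines correlated with Pearson r = 0.812 and Spearman rho = 0.698, where the rule cuts off both axes at 0.7. The split of 47 against 24 moved with single libraries. With 1 library left out, the genes with the larger response in NIL-bri1-72 numbered 16 (NIL-WT-72 drought replicate 3 out) to 35 (NIL-WT-72 drought replicate 1 out). On the edgeR scale the median of this difference was -0.07, against 0.01 over all genes, and ranged from -0.27 to 0.06 with 1 library left out. It was above 0 without NIL-WT-72 drought replicate 1 or water replicate 2, and -0.13 with water and drought libraries of a line paired by replicate number.

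The raised genes varied among replicates of a group more than the rest of the table. The median SD of log2(CPM + 0.5) among the 3 replicates was 0.37 for the 71 genes and 0.21 for all genes in watered NIL-WT-72, and 0.39 against 0.14 in droughted NIL-WT-72. In NIL-bri1-72 it was 0.29 against 0.13 in water and 0.42 against 0.21 in drought. The raised genes have fewer reads than the table as a whole, and the part of read depth in this was not tested.

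Libraries stood high or low across the list. The mean of log2(CPM + 0.5) over the 71 genes was 2.94, 2.64 and 2.39 in watered NIL-WT-72 replicates 1, 2 and 3 and 4.21, 4.02 and 3.72 in the droughted ones. It was 2.58, 2.65 and 2.36 in watered NIL-bri1-72 and 3.81, 3.47 and 4.05 in droughted NIL-bri1-72. The highest watered library was NIL-WT-72 replicate 1 and the lowest droughted one was NIL-bri1-72 replicate 2. Group means were 2.66 ± 0.27 and 3.98 ± 0.25 for NIL-WT-72, and 2.53 ± 0.15 and 3.77 ± 0.29 for NIL-bri1-72 (water, then drought, SD over libraries, n = 3). The difference between the lines in either regime was smaller than the spread among replicates.

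Several of these libraries also stood out gene by gene. NIL-WT-72 water replicate 1 was the highest of its group for 52 of the 71 genes, where it was so for 30.7% of all genes. NIL-WT-72 drought replicate 3 was the lowest of its group for 47 of the 71, against 32.6% of all genes, and NIL-WT-72 drought replicate 1 the highest for 45, against 24.6%. In the watered groups replicate 3 was the lowest for 43 genes in NIL-WT-72 (36.0% of all genes) and for 41 genes in NIL-bri1-72 (33.4%). In NIL-WT-72 the means over the 71 genes had the same replicate order in water and in drought, with replicate 1 highest and replicate 3 lowest, and in NIL-bri1-72 they did not. With NIL-WT-72 water replicate 1 or drought replicate 3 left out the median response in that line was 1.35, with drought replicate 1 left out 1.08, and with all libraries 1.19.

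**Figure D3:**
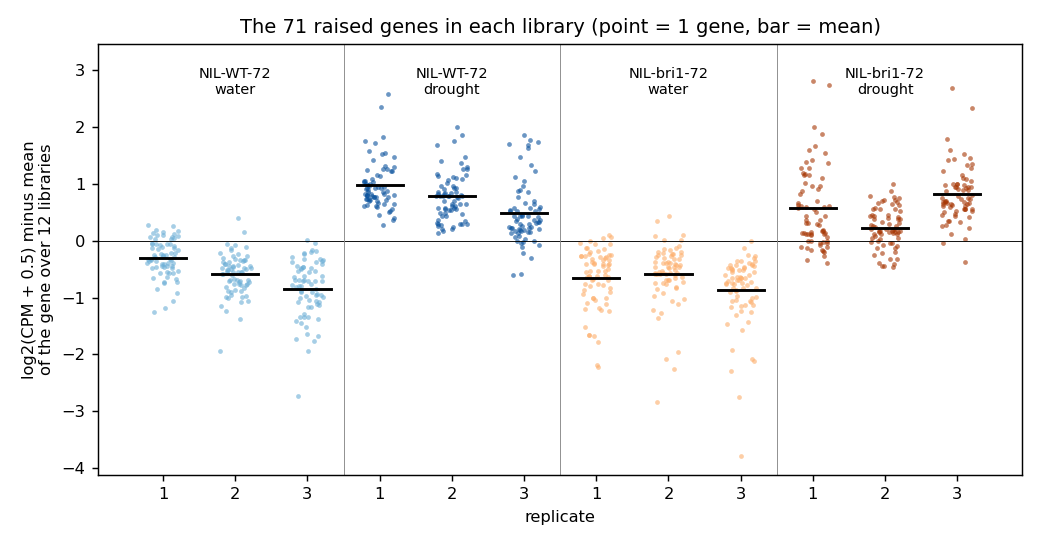
Each point is 1 of the 71 genes in 1 library, as log2(CPM + 0.5) minus the mean of the gene over the 12 libraries. Bars are means over the 71 genes. Among watered libraries NIL-WT-72 replicate 1 is highest, and among droughted ones NIL-bri1-72 replicate 2 is lowest and lacks the highest points seen in replicates 1 and 3.

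Droughted NIL-bri1-72 divided the list. Replicate 2 was the lowest library of that group for 35 genes, replicate 1 for 33 genes and replicate 3 for 3 genes. Over all genes these shares were 44.9%, 27.6% and 27.5%. Replicate 2 was thus lowest about as often in the list as over all genes. Replicate 1 was lowest more often in the list than over all genes, and replicate 3 less often. The genes low in replicate 2 had a median response of 1.46 for NIL-WT-72 and 1.27 for NIL-bri1-72, and those low in replicate 1 had 1.02 and 0.90. Of the 20 genes of highest rank, 15 were lowest in replicate 2. The genes of ranks 1 to 14 were all among them.

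Genes with replicate 1 far above replicate 2 in droughted NIL-bri1-72 were mostly in the upper part of the list. Genes uneven in another way also stood lower down, such as that of rank 57, at 3.72, 4.96 and 10.8 CPM in this group. Replicate 1 exceeded replicate 2 of droughted NIL-bri1-72 by more than 1 on the log2 scale for 15 genes (5.91% of all genes did so), and 13 of the 15 were among the 20 of highest rank. Their median response was 1.79 for NIL-WT-72 and 2.00 for NIL-bri1-72, and the latter median was 2.41 when NIL-bri1-72 drought replicate 2 was left out and 1.75 when replicate 1 was. That this median was higher without replicate 2 than without replicate 1 follows from how the 15 genes were defined. By the rule, replicate 2 lies above all watered NIL-bri1-72 libraries, so replicate 1 of the 15 genes lies more than 1 above them. A large response in NIL-bri1-72 is thus partly built in. For the other 56 genes the medians were 1.10 for NIL-WT-72 and 0.92 for NIL-bri1-72. The 15 genes thus also had the higher median response in NIL-WT-72, whose libraries did not define this division. Responses in both lines, however, chose all 71 genes. At a difference of more than 0.5, replicate 1 exceeded replicate 2 for 25 genes (19.5% of all genes) and replicate 2 exceeded replicate 1 for 8 genes (5.85%), among them the gene of rank 17 on chromosome 5, at 44.0, 68.3 and 83.7 CPM in droughted NIL-bri1-72. That gene was at 97.6, 89.9 and 171.5 CPM in droughted NIL-WT-72, above all droughted libraries of NIL-bri1-72. These divisions were made after the values were seen and carry no test.

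**Figure D4:**
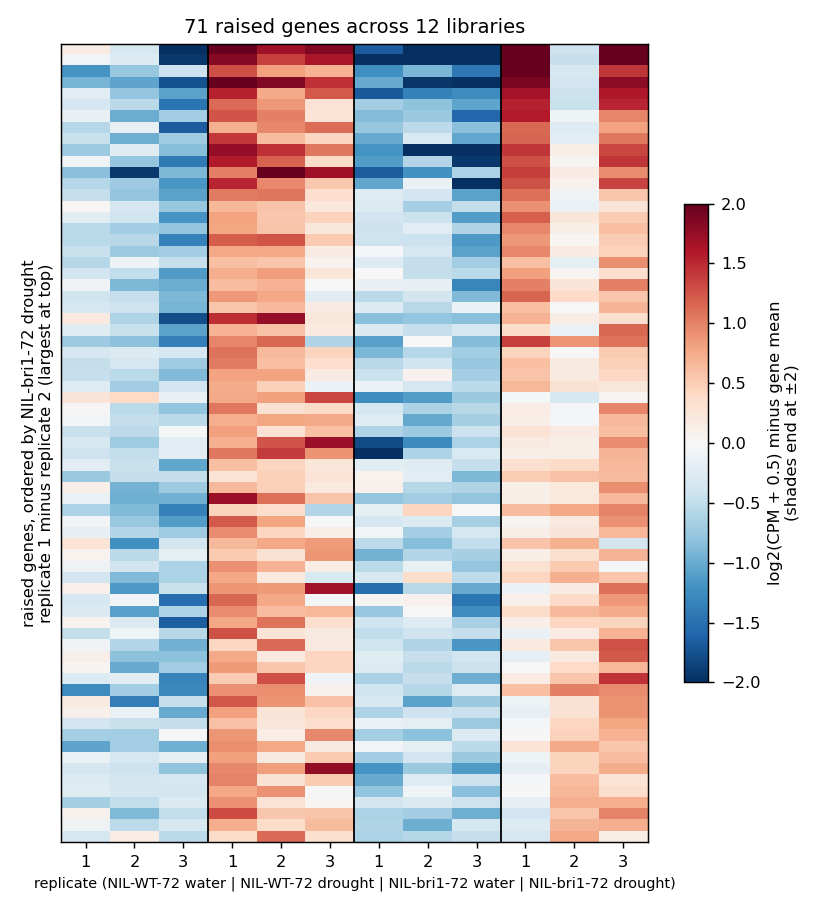
The 71 genes (rows) in the 12 libraries (columns), as log2(CPM + 0.5) minus the mean of the gene, with shades that end at 2 either way. Rows are ordered by NIL-bri1-72 drought replicate 1 minus replicate 2. In the upper rows replicates 1 and 3 of droughted NIL-bri1-72 are strongly raised and replicate 2 is pale, and in the lower rows replicate 1 is the pale one.

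The rule did not use the comparison between the lines. Averaged over both regimes, the fold change of this comparison is by design unrelated to the drought responses. The condition on overlap, however, bears on the spread among replicates, which enters the p-values. In water or in drought alone the comparison shares libraries with the responses that chose the genes. Counts among the 71 genes in a single regime, and counts of p-values for the average, are therefore a description. In water, edgeR called 0 of all genes between NIL-bri1-72 and NIL-WT-72 (0% of genes), and thus 0 of the 71. An unadjusted p below 0.05 was reached by 5.24% of all genes and by 9 of the 71 genes (12.7%). Of the 9 genes, 6 were lower in NIL-bri1-72 (2.43% of all genes) and 3 higher (2.81%). In drought edgeR also called 0 genes (0%). There 2.47% of all genes had such a p, and 4 of the 71 (5.63%), all 4 lower in NIL-bri1-72 (1.26% of all genes). Averaged over both regimes edgeR called 0 genes (0%), 6.49% of all genes had an unadjusted p below 0.05, and 12 of the 71 did (16.9%), 10 lower (3.02% of all genes) and 2 higher (3.47%). With DESeq2 the calls numbered 4 in water (0.0192%), 1 in drought (0.0048%) and 32 for the average (0.154%), and each held 1 of the 71 genes.

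Most of the 71 genes had a lower fitted level in NIL-bri1-72 than in NIL-WT-72, by small amounts. The edgeR log2 fold change averaged over regimes was below 0 for 48 of the 71 genes (67.6%), against 50.9% of all genes. Its median was -0.16 over the 71 genes and -0.00293 over all genes. In water the median was -0.12 and 44 genes were below 0 (52% of all genes), and in drought it was -0.17 and 47 genes were below 0 (49.2%). Both regimes were below 0 for 34 genes and above 0 for 14, against 31.4% and 30.1% of all genes. The averaged value was below -0.5 for 12 genes and above 0.5 for 2, where 3.79% and 1.50% of all genes lay so far out. Without 1 library the median ranged from -0.22 to -0.04. It was nearest to 0, at -0.04, when NIL-WT-72 water replicate 1 was left out, followed by -0.06 for NIL-WT-72 drought replicate 1 and -0.07 for NIL-bri1-72 drought replicate 2. Since libraries move up and down over the whole list, the 71 genes do not count as separate observations of a difference between the lines.

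**Figure D5:**
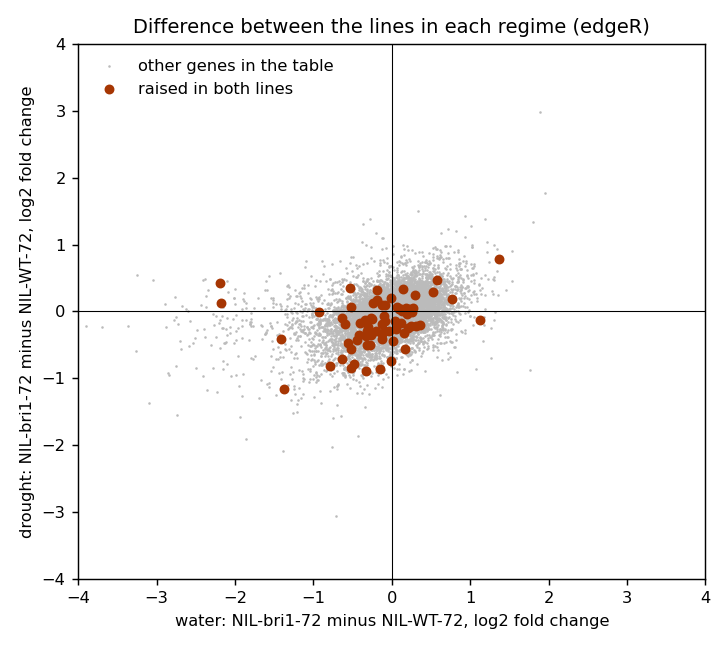
The edgeR log2 fold change of NIL-bri1-72 against NIL-WT-72 in water (horizontal axis) and in drought (vertical axis). Coloured points are the 71 genes raised by drought in both lines and grey points all other genes. More coloured points lie in the lower left part, below 0 on both axes (34), than in the upper right part (14).

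Among the 71 genes, Sobic.007G154300 on chromosome 7, rank 50, differed most clearly between the lines, and it was singled out after its values were seen. It was at 6.52, 7.19 and 4.75 CPM in watered and 9.43, 9.77 and 14.2 CPM in droughted NIL-WT-72. Its values in NIL-bri1-72 were 1.98, 2.20 and 2.99 CPM under watering and 5.25, 4.18 and 5.45 CPM under drought. The lines did not overlap in either regime, and the droughted level of NIL-bri1-72 was close to the watered level of NIL-WT-72. The step from water to drought was of similar size in both lines, at 0.80 for NIL-WT-72 and 0.93 for NIL-bri1-72. The averaged log2 fold change between the lines was -1.27 (SE 0.16, edgeR adjusted p = 0.151, DESeq2 adjusted p = 4.97e-09), so the call depends on the test. The edgeR adjusted p of the other 70 genes was higher than this one.

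Sobic.005G035100 on chromosome 5, rank 68 and likewise chosen after its values were seen, differed in the opposite direction. It was at 1.17, 0.912 and 0.518 CPM in watered and 3.03, 2.81 and 1.23 CPM in droughted NIL-WT-72. Its values in NIL-bri1-72 were 1.77, 2.99 and 2.09 CPM under watering and 3.53, 3.92 and 4.64 CPM under drought. In water and in drought alike, the lowest NIL-bri1-72 library lay above the highest of NIL-WT-72. The averaged log2 fold change was 1.07 (SE 0.27), with an adjusted p of 0.739 by edgeR and 0.108 by DESeq2, so no call was made. It stood on few reads, with a smallest count of 12. These were the only genes among the 71 whose lines did not overlap in both regimes, 1 lower (0.274% of all genes) and 1 higher (0.437% of all genes) in NIL-bri1-72.

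The 15 genes with replicate 1 above replicate 2 by more than 1 in droughted NIL-bri1-72 were also read by regime. Their edgeR log2 fold change in water was below 0 for 14 and had a median of -0.52. In drought it was below 0 for 10 with a median of -0.11. For the other 56 genes the medians were -0.08 in water and -0.19 in drought. The 15 genes were picked by droughted NIL-bri1-72 libraries, which the rule required to exceed the watered ones. Their watered level in NIL-bri1-72 is thus not free of the choice, and the part of the choice in these medians was not tested. In water, all NIL-bri1-72 libraries lay below all NIL-WT-72 libraries for 7 of the 71 genes (3.66% of all genes) and above them for 3 (6.36%). In drought they lay below for 4 (3.09%) and above for 2 (3.38%). The adjusted p for Sobic.009G215700 in water was 0.888 at a log2 fold change of -2.18 (SE 0.95, edgeR), so its lower watered level in NIL-bri1-72 did not pass the test.

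The 71 genes were spread over all 10 chromosomes and 0 were on unplaced scaffolds. Chromosome 3 held 18 of them (25.4%), where it holds 14.5% of the genes in the table. Chromosome 1 held 10 (14.1%, against 18.0%) and the other chromosomes 5 or 6 each. As a share of its genes in the table, chromosome 3 had 0.597% raised and chromosome 2, the lowest, 0.186%. The genes on chromosome 3 had a median smaller response of 1.07 and included ranks 2, 5 and 10. Neighbours within the list were counted, and the number expected for 71 genes placed at random was not worked out. A single pair was directly adjacent in the order of identifiers, the genes of ranks 5 and 15 on chromosome 3, and 6 of the 71 genes had another within 5 places. The adjacent pair differed in its course over libraries. In droughted NIL-bri1-72 the gene of rank 5 was at 10.4, 4.15 and 7.47 CPM, lowest in replicate 2, and that of rank 15 was at 9.92, 12.2 and 23.7 CPM, lowest in replicate 1. In droughted NIL-WT-72 they were at 7.83, 16.2 and 12.9 CPM and at 20.3, 19.9 and 35.5 CPM. Whether such neighbours share reads is not known, because the sources used here do not state the strand setting of the counting.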

How the data were processed

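RNA was measured in 12 root libraries, with 3 in each of 4 groups that the sample titles give. Raw counts of reads, not normalized, were deposited by the authors as a single table of identifiers by libraries. Per the submitters' processing notes, the tools included featureCounts 1.6.2, HISAT2 2.1.0, Trimmomatic 0.38 and FastQC 0.11.2. The sources used here state no parameters, genome build or annotation. Per the labels' protocols, the libraries were stranded and read as pairs.

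The rule was applied to counts divided by the column sum, with 0.5 added to CPM before log2. Differences between the lines were fitted with edgeR 4.0.16 in R 4.3.3 on all 20818 genes and 12 libraries (TMM, 4 group means, quasi-likelihood test, two-sided, Benjamini-Hochberg adjusted p below 0.05 called), with DESeq2 1.42.0 and limma 3.58.1 as alternatives. Each standard error was obtained from the log2 fold change and the square root of its F statistic. Counting error, which weighs more on low counts, is part of the spread shown. No batch is given in the labels. Same-numbered water and drought libraries of a line deviated together (6 pairs, correlations from 0.102 to 0.276 in NIL-WT-72 and from 0.130 to 0.379 in NIL-bri1-72). Libraries of different number ran from -0.271 to 0.120 in NIL-WT-72 and from -0.296 to 0.0499 in NIL-bri1-72, so the ranges overlapped in NIL-WT-72. The pairing is read from the data. The edgeR fit does not use it, and an added alternative does.

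Genes were to be named as the 2 of highest rank where no product is known. The other identifiers were chosen after their values were seen. The 71 genes, the tests and the alternatives were chosen with earlier results of these data known. Gene lists by product, promoter motifs and sequences could not be applied, since 0 of 20818 identifiers matched the 32945 entries of the RefSeq table.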

Additional observations from a re-analysis of the deposited data

How the results depend on the processing

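The rule chose 71 genes, 46 with a pseudocount of 2, 113 with a bound of 0.5 and 33 with a bound of 1. With a pseudocount of 0.1 it chose 75, with TMM sizes 72 and with DESeq2 size factors 67, of which 71, 69 and 65 were among the 71. With 1 library left out it chose 56 to 102 genes and kept 54 to 70 of the 71. The most were chosen without NIL-bri1-72 drought replicate 1 (102) and NIL-WT-72 water replicate 1 (101), where the condition on overlap is also weaker with fewer libraries. The filter of the edgeR fit kept all 20818 genes, so a fit without it is no separate alternative. Between the lines, edgeR called 0 genes and 0 of the 71 in water, in drought and on average with RLE scaling. It also did so with a mean of 1 CPM or more and with any 1 library left out (0 to 0). The same held with only the libraries compared in water and in drought and for limma voom on the average. DESeq2 called 4, 1 and 32 genes, with 1 of the 71 in each, Sobic.007G154300, whose averaged adjusted p ranged from 4.97e-09 to 0.885 over 19 alternatives. Its DESeq2 adjusted p was 0.00103 in water and 0.0207 in drought.

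The replicate block also gave 0 calls in each comparison of the lines. Same-numbered libraries of the lines correlated between -0.0592 and 0.0834 in water and between -0.339 and 0.102 in drought, so the lines were not taken as paired. The block changed the averaged median of the 71 genes from -0.16 to -0.13. Pairing the water and drought libraries of a line by number, added after the data were seen, gave 0 calls in each comparison with limma voom, at an estimated correlation of 0.183. The averaged median was then -0.17, and the median difference in drought response was -0.13 with edgeR, in place of -0.07. With 1 library left out the averaged median ranged from -0.22 to -0.04, and that of the difference in drought response from -0.27 to 0.06. In drought the log2 fold change of Sobic.009G215700 between the lines was 0.13. With 1 library left out it ranged from -0.25 to 0.63. It was -0.25 and -0.17 without NIL-bri1-72 drought replicates 1 and 3, -0.05 without NIL-WT-72 drought replicate 2 and -0.35 with limma voom on these pairs, where the cause was not tested. Because the rule fixes the sign of a response, other settings bear on its size alone. Over settings added after the data were seen, the response of Sobic.007G154300 was 0.62 to 0.91 for NIL-WT-72 and 0.67 to 1.07 for NIL-bri1-72. That of Sobic.005G035100 was 0.58 to 1.35 and 0.50 to 0.89, so both genes fell below the bound of 0.7 in some of them. The share of promoters with a motif, planned earlier, was not run. The smallest count behind the 71 genes was 10, and genes below the floor of the table are not analysed here.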
